A study of Mus musculus with 36 samples.

Results

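Msln, Upk3b, Upk1b, Lrrn4, Krt8, Krt18, Krt19 and Wt1 are 8 genes by which the mesothelium and its cardiac form, the epicardium, are commonly recognised. They were taken by name from the 24061 gene names of the deposited tables, and each has 1 RefSeq transcript there. Their levels were followed in RNA sequencing libraries from mouse hearts, with the same genes read in every cell preparation and treatment group. The mice were WT and of the strain C57Bl6J, and every heart received either 12 Gy of radiation as a single fraction (RT) from a small animal microirradiator or a sham procedure. Fibroblasts, endothelial cells and myocytes were each sequenced 6 hours, 7 days and 28 days after the procedure, which gives 18 groups of 2 libraries and 36 libraries in all. RNA was taken with the RNeasy mini plus kit and libraries were made with the SMARTer mRNA kit. The labels give neither age nor sex and do not say how the cells were separated or whether the replicates came from different animals, so the p-values here speak of the spread among these particular libraries, which may be technical.

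The mesothelium is the thin epithelial sheet that lines the body cavities and covers the organs within them. On the heart it forms the epicardium, which in the embryo sends cells into the muscle wall, where they become fibroblasts and mural cells of the coronary vessels. In the adult it is largely quiet, and it takes up parts of its embryonic gene programme after injury to the heart. Its cells carry keratins like other epithelia and are held to be a source of matrix and growth factors for the tissue beneath.

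By role, 4 of the genes encode membrane proteins, 3 encode keratins and 1 encodes a transcription factor. On build GRCm38.p6, Msln (chromosome 17, 25748613 to 25754378) encodes mesothelin, a glycoprotein held at the surface by a lipid anchor. Upk3b (chromosome 5, 136038496 to 136044993) and Upk1b (chromosome 16, 38773182 to 38800203) encode uroplakins, membrane proteins of the urothelium that mesothelial cells also make. Lrrn4 (chromosome 2, 132866686 to 132894010) encodes a membrane protein with leucine-rich repeats. Krt19 lies on chromosome 11 (100140810 to 100145926), and like Krt18 it encodes an acidic type I keratin, which assembles into filaments with a basic type II keratin such as Krt8. Wt1 (chromosome 2, 105126529 to 105173614) encodes a zinc finger transcription factor needed for the epicardium to form and also described in endothelial cells of heart vessels.

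Krt8 (chromosome 15, 101996711 to 102004342) and Krt18 (chromosome 15, 102028216 to 102032026) encode the partner keratins of simple epithelia. They stand on opposite strands and point away from each other, 23.873 kb apart, with 2 non-coding genes and no protein-coding gene annotated between them. Because this pair rose most 6 hours after 12 Gy while Lrrn4 fell, the 250 bases before the start of each of these 3 genes are printed here from RefSeq, build GRCm38.p6, 5′ to 3′ on the strand of the gene. The Krt8 stretch is chr15:102004343-102004592 on the minus strand, the Krt18 stretch is chr15:102027966-102028215 on the plus strand, and the Lrrn4 stretch is chr2:132880863-132881112 on the minus strand, before a start that lies inside the annotated span of Lrrn4. Capitals mark the letters GGAATG, the core recognised by TEAD factors, on either strand.
Krt8 promoter: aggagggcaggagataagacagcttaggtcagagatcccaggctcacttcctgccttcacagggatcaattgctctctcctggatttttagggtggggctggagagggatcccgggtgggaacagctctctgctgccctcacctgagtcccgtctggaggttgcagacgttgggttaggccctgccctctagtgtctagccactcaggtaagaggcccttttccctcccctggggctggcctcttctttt
Krt18 promoter: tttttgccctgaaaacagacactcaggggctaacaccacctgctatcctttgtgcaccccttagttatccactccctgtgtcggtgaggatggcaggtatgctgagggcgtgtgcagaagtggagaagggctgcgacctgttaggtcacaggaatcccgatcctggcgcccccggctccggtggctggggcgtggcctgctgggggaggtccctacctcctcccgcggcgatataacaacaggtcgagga
Lrrn4 promoter: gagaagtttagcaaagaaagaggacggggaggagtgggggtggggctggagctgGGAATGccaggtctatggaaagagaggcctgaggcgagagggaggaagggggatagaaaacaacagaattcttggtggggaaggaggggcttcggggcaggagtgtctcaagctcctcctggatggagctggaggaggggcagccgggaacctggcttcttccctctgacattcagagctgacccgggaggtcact
The TATA box was searched as TATAAA, the GC box as GGGCGG, the AP-1 site as TGANTCA and the half-site of the p53 response element by its consensus, each on both strands, and the hits of different motifs were allowed to overlap. None of these letters was found in the Krt8 or Krt18 stretch, and the Lrrn4 stretch held 1 TEAD core and no other motif. The stretch of Upk3b, the only other of the 8 genes in the promoter table and not called at 6 hours, also held 1 TEAD core and no other motif. Among the 32851 RefSeq promoter windows of the same length, TATAAA was present in 12.4%, GGGCGG in 32.7%, TGANTCA in 6.75%, GGAATG in 12.6% and the p53 half-site in 7.13%. A match of letters is a description of the sequence and does not show that a factor binds there.

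Reads on the 1 transcript kept per gene name came to 25.63 to 31.94 M in the fibroblast libraries, 25.91 to 45.49 M in the endothelial libraries and 10.18 to 19.42 M in the myocyte libraries. Summed over all transcripts of the files they came to 41.02 to 50.45 M, 40.90 to 72.54 M and 17.69 to 33.44 M, in the same order. Levels are reads scaled to library size (CPM), and RPKM, which also divides by transcript length, is used where genes are compared with each other. The labelled cell types were checked by marker genes. The 10 endothelial markers summed to 14120 to 18180 CPM in endothelial libraries, and the 10 cardiomyocyte markers to 78890 to 97000 CPM in myocyte libraries. Myocyte libraries also held endothelial markers (1744 to 3738 CPM) and macrophage markers (555 to 1005 CPM). The 12 fibroblast markers summed to between 58620 and 73580 CPM in fibroblast libraries, against 2345 to 5915 CPM in endothelial and 4116 to 7122 CPM in myocyte libraries. Markers of lung and airway epithelium, which share keratins with the mesothelium, summed to only 0.499 to 2.10 CPM in fibroblast libraries, with Sftpa1 and Nkx2-1 at 0 reads. In the same libraries the 10 endothelial markers summed to 369 to 603 CPM, mostly from Kdr (98.4 to 235 CPM) and Tek (204 to 306 CPM). The 7 macrophage markers found summed to 26.2 to 48.9 CPM, mostly from Csf1r (16.7 to 37.9 CPM). The 10 cardiomyocyte markers summed there to 75.2 to 154 CPM and the 8 smooth muscle and pericyte markers to 862 to 1372 CPM. The 5 Schwann cell markers summed to 50.2 to 62.0 CPM. The fibroblast library of 12 Gy, 6 hours, replicate 2 stood apart in its endothelial markers, with a mean log2(CPM + 1) of 5.15 against 2.69 to 3.61 in the other 11.

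The highest levels of 7 of the 8 genes were in the fibroblast libraries, the next in the endothelial libraries and the lowest in the myocyte libraries, and for these 7 no library of a preparation overlapped the next one. The rule that named the genes also named the fibroblast preparation as the highest, so these levels are a description without a test. The same order without overlap was shown by 4.36% of the 16234 genes tested over all libraries. Msln averaged 498 ± 160 CPM in fibroblast, 57.3 ± 20.1 CPM in endothelial and 6.66 ± 2.95 CPM in myocyte libraries (SD, n = 12 each). Upk3b averaged 859 ± 222 CPM in fibroblast, 94.9 CPM in endothelial libraries (41.6 to 134 CPM) and 8.74 ± 3.66 CPM in myocyte libraries (SD, n = 12 each). Upk1b, the tetraspanin partner of the uroplakins, averaged 122 ± 32.0 CPM in fibroblast, 14.01 ± 4.92 CPM in endothelial and 1.28 ± 0.46 CPM in myocyte libraries. Lrrn4 averaged 281 ± 67.7 CPM in fibroblast, 28.4 ± 11.9 CPM in endothelial and 2.31 ± 1.39 CPM in myocyte libraries. The fibroblast mean was thus between 8.21 (Krt8) and 9.90 (Lrrn4) times the endothelial mean for all genes but Wt1. In bulk libraries such as these, fewer cells of a type and less RNA per cell cannot be told apart.

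The keratins kept the same order of preparations. Krt19 averaged 137 ± 38.7 CPM in fibroblast, 15.99 ± 5.88 CPM in endothelial and 1.46 ± 0.84 CPM in myocyte libraries (SD, n = 12 each). Krt8 averaged 73.5 ± 32.6 CPM in fibroblast, 8.95 ± 3.75 CPM in endothelial and 0.65 ± 0.37 CPM in myocyte libraries, with between 1 and 22 reads in a myocyte library. Krt18 averaged 70.2 ± 33.5 CPM in fibroblast, 7.87 ± 3.42 CPM in endothelial and 1.16 ± 0.37 CPM in myocyte libraries. Across the fibroblast libraries the level of Krt8 spanned 36.5 to 161 CPM and that of Krt18 spanned 37.4 to 160 CPM, and both extremes fell in the same libraries, sham at 7 days replicate 1 and 12 Gy at 6 hours replicate 2.

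Wt1 did not follow the other genes. It averaged 50.8 ± 14.3 CPM in fibroblast libraries, 48.1 ± 6.60 CPM in endothelial libraries and 7.02 ± 3.28 CPM in myocyte libraries (SD, n = 12 each). The fibroblast libraries ranged from 28.8 to 78.8 CPM and the endothelial libraries from 38.2 to 61.0 CPM, so the 2 preparations overlapped. Among sham libraries alone the mean in fibroblasts was 0.882 times that in endothelial cells. Only the myocyte libraries, at 3.62 to 13.0 CPM, lay apart from both.

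**Figure D1:**
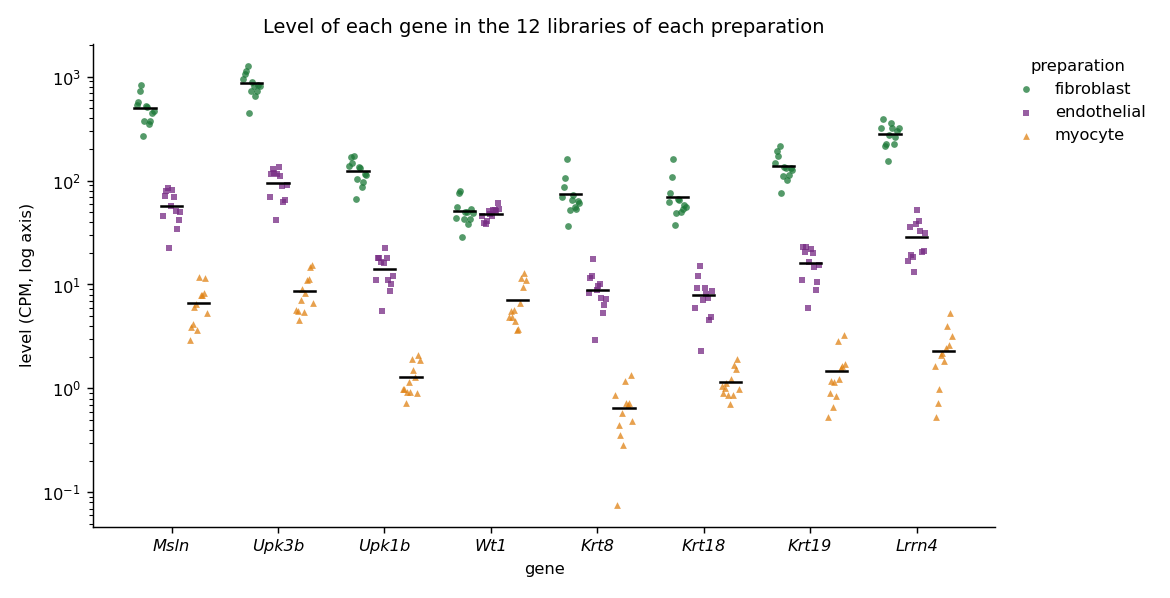
Level of each gene in CPM on a log axis, with 1 point per library (12 fibroblast, 12 endothelial and 12 myocyte libraries per gene) and a bar at the mean. The preparations are separate for 7 genes, whereas the fibroblast and endothelial points of Wt1 overlap around means of 50.8 and 48.1 CPM.

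Per length of transcript, the order in fibroblast libraries ran from Upk3b at 266 ± 69.7 RPKM through Msln at 149 ± 48.2, Krt19 at 63.1 ± 17.99, Lrrn4 at 51.0 ± 12.4, Upk1b at 43.7 ± 11.6, Krt18 at 31.7 ± 15.2 and Krt8 at 25.7 ± 11.5 to Wt1 at 10.4 ± 2.97 RPKM (SD, n = 12). The ranges over libraries overlapped between every pair of neighbours in this order. As a share of the RPKM summed over the 8 genes, which cancels how much of the group a library holds, Upk3b took 39.8% to 43.0% in the fibroblast libraries and Msln 21.2% to 25.9%, and these 2 did not overlap. Wt1 took 1.62% ± 0.15 in fibroblast libraries, 13.6% ± 5.84 in endothelial libraries and 17.2% ± 4.82 in myocyte libraries (SD, n = 12 each). The lowest endothelial share of Wt1, 7.77%, lay above its highest fibroblast share, 1.84%.

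**Figure D2:**
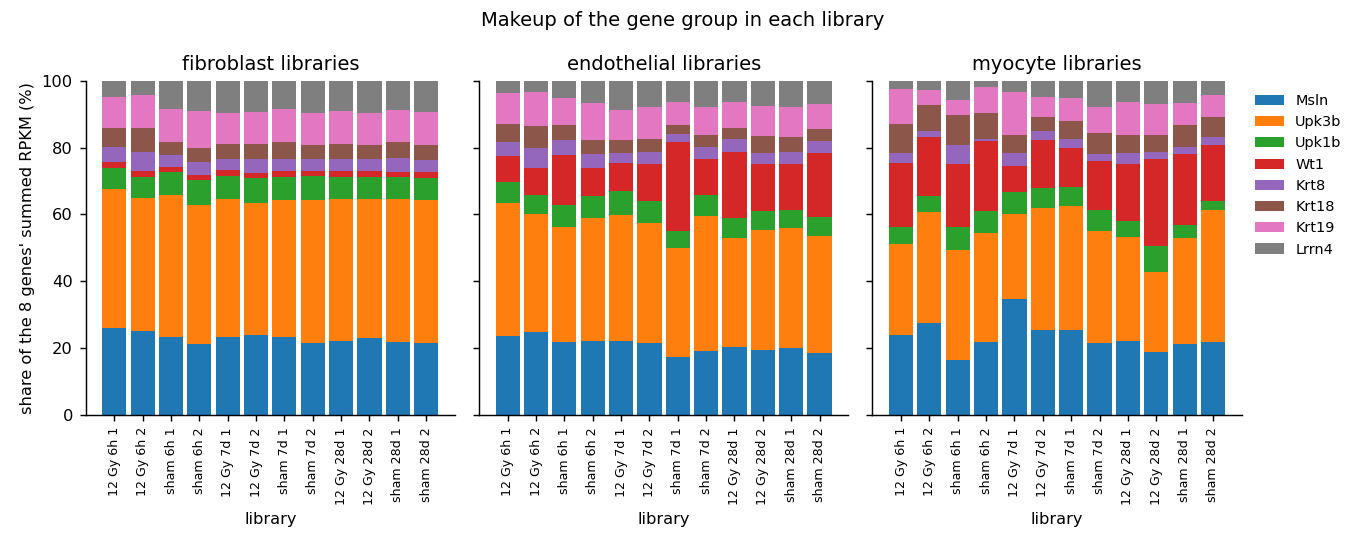
Share of each of the 8 genes in their summed RPKM (percent), with 1 bar per library and 1 panel per preparation. The red Wt1 segment is 1.31% to 1.84% in fibroblast libraries and 7.77% to 26.5% in endothelial libraries, and the grey Lrrn4 segment is smallest in the 12 Gy libraries of 6 hours among the fibroblast bars.

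In fibroblast libraries 6 hours after 12 Gy, Krt18, Krt8, Wt1 and Msln rose and Lrrn4 fell, while Upk3b, Krt19 and Upk1b did not pass the test. Tests are edgeR's quasi-likelihood test over all genes of the preparation with Benjamini-Hochberg adjustment and a threshold of 0.05, and fold changes are 12 Gy over sham. Where genes are counted at an unadjusted p under 0.05, the share of all genes at that threshold was not counted. The 5 of 8 genes called stand beside 24.6% of the 14998 genes tested, of which 12.3% were higher and 12.3% lower.

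Krt18 stood at 109 and 160 CPM in the 12 Gy libraries, against 62.1 and 75.7 CPM in the sham libraries. Both irradiated libraries lay above both sham libraries, and the log2 fold change was 0.96 ± 0.15 (SE; adjusted p = 0.00029 by edgeR). Krt8, its filament partner, stood at 105 and 161 CPM in the 12 Gy libraries, against 69.4 and 85.8 CPM in the sham libraries, with a log2 fold change of 0.77 ± 0.17 (SE; adjusted p = 0.0042 by edgeR). For both keratins the second irradiated library was well above the first. Krt19, which pairs with Krt8 in simple epithelia, stood at 172 and 213 CPM in the 12 Gy libraries, against 146 and 191 CPM in the sham libraries. Its groups overlapped, with a log2 fold change of 0.19 ± 0.15 (SE; adjusted p = 0.40 by edgeR).

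Wt1 stood at 75.6 and 78.8 CPM in the 12 Gy libraries, against 44.0 and 55.9 CPM in the sham libraries. The groups were apart, and the log2 fold change was 0.63 ± 0.13 (SE; adjusted p = 0.0031 by edgeR). Msln stood at 728 and 831 CPM in the 12 Gy libraries, against 539 and 564 CPM in the sham libraries, with a log2 fold change of 0.50 ± 0.11 (SE; adjusted p = 0.0059 by edgeR). The uroplakins gave smaller values. Upk3b stood at 1133 and 1266 CPM in the 12 Gy libraries, against 941 and 1066 CPM in the sham libraries, with a log2 fold change of 0.25 ± 0.15 (SE; adjusted p = 0.24 by edgeR). Upk1b stood at 148 and 172 CPM in the 12 Gy libraries, against 137 and 167 CPM in the sham libraries, which overlapped, with a log2 fold change of 0.07 ± 0.14 (SE; adjusted p = 0.77 by edgeR).

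Lrrn4 went the other way. It stood at 216 and 225 CPM in the 12 Gy libraries, against 322 and 394 CPM in the sham libraries. Both irradiated libraries lay below both sham libraries, and the log2 fold change was -0.70 ± 0.18 (SE; adjusted p = 0.010 by edgeR). Its share of the summed RPKM was 4.67% and 4.15% in the 12 Gy libraries, against 8.49% and 9.02% in the sham libraries of that time and 8.28% to 9.71% in all fibroblast libraries of 7 and 28 days. The shares of Krt18 were 5.83% and 7.34% in the 12 Gy libraries, against 4.07% and 4.30% in the sham libraries.

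In 5 genes both irradiated libraries exceeded both sham libraries and in 1 gene both lay below, patterns that 30.3% and 29.6% of all genes tested showed. The median log2 fold change of the 8 genes was 0.38, beside 0.00 for all genes. Without the 12 Gy library of 6 hours replicate 2, which stood apart in its endothelial markers, Krt8 gave 0.44 ± 0.15 (SE; adjusted p = 0.073 by edgeR) and Msln 0.40 ± 0.14 (adjusted p = 0.066), and 3 genes remained called. Lrrn4 was not called without the other irradiated library (adjusted p = 0.053 by edgeR) or without sham replicate 2 (adjusted p = 0.088). Upk3b was called as a 6th gene without either of the sham libraries of 7 days, and a fit of all 36 libraries called only Krt18 and Wt1.

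Markers of other cells moved at the same time. Of the 12 fibroblast markers Pdgfra, Pdgfrb, Lum, Col1a2 and Col1a1 were lower 6 hours after 12 Gy, by log2 fold changes of -0.70, -0.45, -0.42, -0.37 and -0.25. The summed fibroblast markers stood at 60920 and 58620 CPM in the 12 Gy libraries, against 69960 and 62880 CPM in the sham libraries. Of the 8 smooth muscle and pericyte markers Acta2, Cnn1, Myh11, Tagln and Abcc9 were lower (log2 fold changes -0.84, -0.70, -0.59, -0.47 and -0.42), and their sum stood at 944 and 862 CPM in the 12 Gy libraries, against 1287 and 1234 CPM in the sham libraries. Of the 10 endothelial markers Kdr (-0.89) and Tek (-0.35) were lower. The other 8 had log2 fold changes of 1.05 (Pecam1) to 1.92 (Egfl7) that did not pass the test (adjusted p = 0.061 to 0.11 by edgeR), so that the median of the list was 1.49, and all 10 had an unadjusted p under 0.05. In these 8 genes 12 Gy replicate 2 lay above both sham libraries and 12 Gy replicate 1 lay below both, as for Cdh5, the endothelial cadherin, at 3.13 and 46.2 CPM in the 12 Gy libraries, against 7.41 and 6.71 CPM in the sham libraries. Of the 5 Schwann cell markers Cnp (-0.25) was lower, and no cardiomyocyte or macrophage marker was called. These markers were singled out after their values were seen, and their part in the changes of the mesothelial genes was not tested.

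In fibroblast libraries 7 days after 12 Gy, every one of the 8 genes was higher in both irradiated libraries than in both sham libraries, a pattern shown by 23.4% of all genes tested, and Msln and Upk1b passed the test. The 2 genes called stand beside 1.84% of all genes called, or 1.51% called higher. All 8 genes had an unadjusted p under 0.05. The log2 fold changes lay close together, between 0.50 (Wt1) and 0.69 (Msln), with a median of 0.63 beside 0.00 for all genes.

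Msln stood at 525 and 507 CPM in the 12 Gy libraries, against 267 and 375 CPM in the sham libraries, with a log2 fold change of 0.69 ± 0.12 (SE; adjusted p = 0.0066 by edgeR). Upk1b stood at 135 and 131 CPM in the 12 Gy libraries, against 66.3 and 103 CPM in the sham libraries, with a log2 fold change of 0.65 ± 0.15 (SE; adjusted p = 0.038 by edgeR). For both genes the irradiated libraries lay close to each other and the sham libraries did not. Lrrn4, lower at 6 hours, stood at 355 and 324 CPM in the 12 Gy libraries, against 156 and 273 CPM in the sham libraries, with a log2 fold change of 0.66 ± 0.18 (SE; adjusted p = 0.082 by edgeR). The other 5 genes gave adjusted p-values of 0.061 to 0.10. Krt18 stood at 67.1 and 65.4 CPM in the 12 Gy libraries, against 37.4 and 49.2 CPM in the sham libraries, and Krt8 at 64.8 and 73.4 CPM in the 12 Gy libraries, against 36.5 and 52.2 CPM in the sham libraries. Upk3b stood at 889 and 818 CPM in the 12 Gy libraries, against 450 and 725 CPM in the sham libraries. Krt19 stood at 136 and 133 CPM in the 12 Gy libraries, against 75.3 and 111 CPM in the sham libraries. Wt1 stood at 50.3 CPM in both 12 Gy libraries, against 28.8 and 42.4 CPM in the sham libraries. In each of these 5 genes sham replicate 1 was the lowest of the 4 libraries.

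The summed level of the 8 genes stood at 2223 and 2102 CPM in the 12 Gy libraries, against 1117 and 1729 CPM in the sham libraries, and sham replicate 1 was the lowest of all 12 fibroblast libraries. Every gene was lower in sham replicate 1 than in sham replicate 2. Without sham replicate 1 only Msln was called (log2 fold change 0.46, adjusted p = 0.031 by edgeR), and without sham replicate 2 all 8 were called. Without 12 Gy replicate 1 none was called (adjusted p = 0.058 for Msln by edgeR). Only Msln was called without 12 Gy replicate 2, or without any single library of 28 days, where the adjusted p of Upk1b was 0.051 to 0.061. Without either 12 Gy library of 6 hours 4 genes were called, Krt8 and Krt18 being added. DESeq2 called Msln and Wt1 and not Upk1b, and counts summed over transcripts called Msln alone. A fit of all 36 libraries called none, and fits without the low-count filter or with the replicate number as a block called all 8. Over all genes these fits called 51, 843 and 432, in that order, against 276 reported. Of the markers, Pdgfra (-0.48) and Tek (-0.33) were lower after 12 Gy on the log2 scale, beside 0.327% of all genes called lower, and none was called higher. The median of the 10 endothelial markers was 0.91, with 2 of them, Kdr (0.52) and Tek, at an unadjusted p under 0.05. The median of the 8 smooth muscle and pericyte markers was 0.21, with none called and 6 at an unadjusted p under 0.05. The part of these markers in the result was not tested.

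In fibroblast libraries 28 days after 12 Gy, none of the 8 genes passed edgeR's test, beside 3.29% of all genes, and 2 of them, Msln and Wt1, had an unadjusted p under 0.05. DESeq2 called none either. In all 8 both irradiated libraries lay above both sham libraries, as in 26.1% of all genes tested. Log2 fold changes lay between 0.11 (Krt18) and 0.32 (Lrrn4), with a median of 0.26 beside 0.00 for all genes. Msln stood at 446 and 464 CPM in the 12 Gy libraries, against 348 and 377 CPM in the sham libraries (log2 fold change 0.31 ± 0.12, SE; adjusted p = 0.22 by edgeR). Wt1 stood at 53.5 and 48.6 CPM in the 12 Gy libraries, against 38.6 and 42.3 CPM in the sham libraries (log2 fold change 0.31 ± 0.13, SE; adjusted p = 0.30 by edgeR). In both genes the lowest irradiated library exceeded the highest sham library. Without either of the sham libraries of 7 days, Msln alone was called, and without the low-count filter 5 genes were. Without that filter 929 of all genes were called, against 494 reported. Of the markers, Pdgfra (-0.45), Tek (-0.39), Kcnj8 (-0.45) and Abcc9 (-0.42) were lower and Col1a1 (0.28) was higher after 12 Gy on the log2 scale. Over all genes 0.813% were called lower and 2.48% higher. The list medians were -0.16 for the fibroblast, -0.59 for the endothelial and 0.10 for the smooth muscle and pericyte markers.

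**Figure D3:**
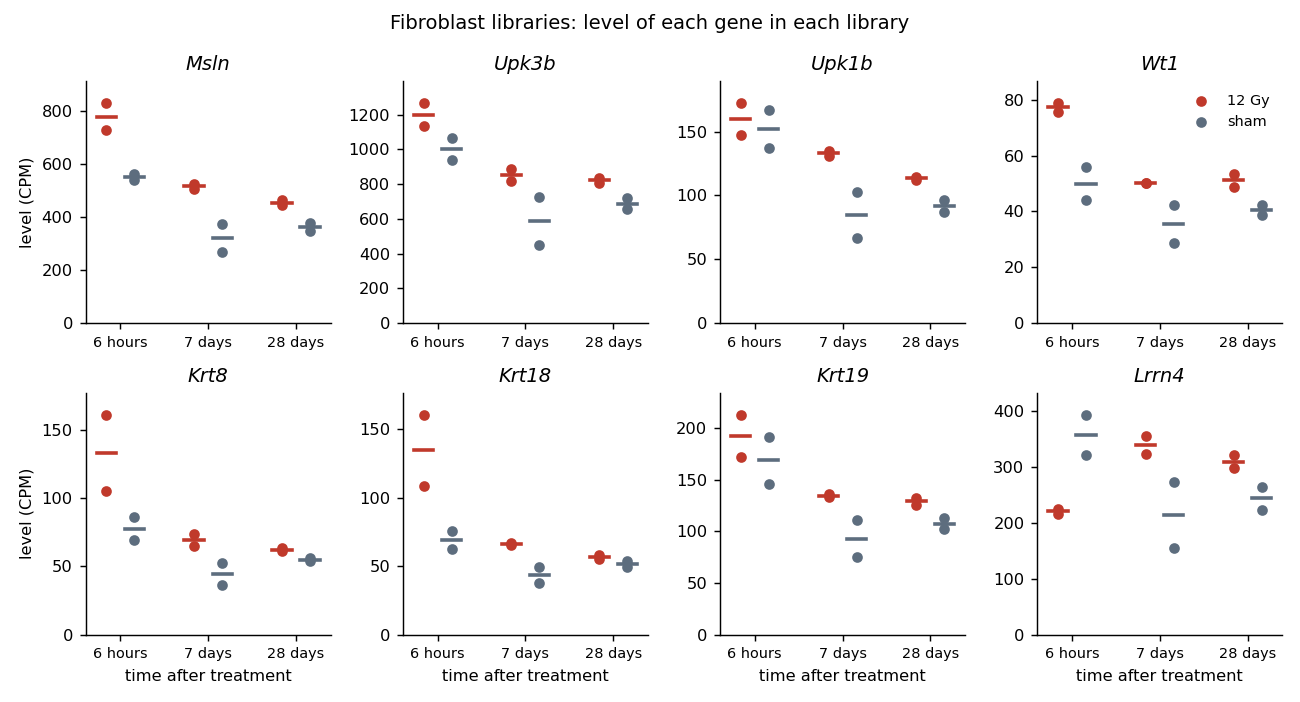
Level of each gene in CPM (linear axes from 0) in the fibroblast libraries, with 1 point per library, 2 libraries of 12 Gy (red) and 2 sham libraries (grey) at each time, and a bar at the mean of each pair. The red points lie above the grey ones for all 8 genes at 7 and 28 days, and below them only for Lrrn4 at 6 hours.

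The change after 12 Gy differed between the 3 times for Lrrn4 (adjusted p = 0.00645 by edgeR's test over times) and for Krt18 (adjusted p = 0.0493), that is in 2 of 8 genes beside 9.89% of all genes. For Lrrn4 the log2 fold change at 6 hours was -0.70, that at 7 days 0.66 and that at 28 days 0.32. For Krt18 these values were 0.96 (6 hours), 0.61 (7 days) and 0.11 (28 days). Lrrn4 was called without any single fibroblast library, with adjusted p up to 0.036. Krt18 kept its call only without 12 Gy replicate 1 of 6 hours or either sham library of 7 days, and otherwise had adjusted p-values between 0.053 and 0.15. The count over the 8 genes was 5 without sham replicate 2 of 7 days, 3 without 12 Gy replicate 1 of 6 hours and 5 without the low-count filter.

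The sham libraries themselves differed between times. In 7 of the 8 genes, all but Wt1 (adjusted p = 0.095), the sham level differed between 6 hours, 7 days and 28 days by edgeR's test over times, beside 7.19% of all genes. DESeq2 called 5 genes, leaving out Krt8, Krt18 and Lrrn4 and adding Wt1. Counts summed over transcripts called 5, without Krt18 and Lrrn4. All 8 were called with the replicate block and without the low-count filter, where 2151 of all genes were called against 1079 reported. For every one of the 8 genes both sham libraries of 6 hours exceeded all 4 sham libraries of the later times, a pattern shown by 16.1% of all genes tested. The summed level of the 8 genes in sham libraries was 2260 and 2600 CPM at 6 hours, 1117 and 1729 CPM at 7 days and 1558 and 1720 CPM at 28 days. Without sham replicate 2 of 6 hours only Msln was called, and without either sham library of 28 days 4 genes were. The call count was 5 without sham replicate 1 of 6 hours, sham replicate 1 of 7 days or either 12 Gy library of 7 days, and Krt18 lost its call in each of these cases. Time and the day on which the cells were prepared cannot be told apart, since the labels give no preparation date.

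In endothelial libraries none of the 8 genes was called by edgeR at 6 hours, 7 days or 28 days, beside 11.3%, 1.82% and 9.97% of the 14919 genes tested there, and DESeq2 called none. Without the low-count filter edgeR called 5 genes at 6 hours (Msln, Upk3b, Lrrn4, Krt8 and Krt18) and 7 at 7 days (all but Wt1). At 7 days that setting called 674 of all genes, against 271 reported. At an unadjusted p under 0.05 there were 0 genes at 6 hours, 3 at 7 days and 0 at 28 days. At 6 hours Lrrn4 stood at 19.0 and 18.5 CPM in the 12 Gy libraries, against 16.9 and 35.7 CPM in the sham libraries, with overlap between the groups and a log2 fold change of -0.51 ± 0.41 (SE; adjusted p = 0.48 by edgeR). Its share of the summed RPKM was 3.44% and 3.26% in the 12 Gy libraries, the 2 lowest of the 12 endothelial libraries, against 4.97% and 6.68% in the sham libraries. Krt18 stood at 12.0 and 15.1 CPM in the 12 Gy libraries of 6 hours, against 5.96 and 9.17 CPM in the sham libraries, and these did not overlap (log2 fold change 0.82 ± 0.39, SE; adjusted p = 0.21 by edgeR).

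At 7 days the log2 fold changes of the 7 genes other than Wt1 lay between 0.62 and 0.92 in endothelial libraries, with adjusted p-values of 0.28 to 0.66 by edgeR. Msln stood at 81.2 and 69.2 CPM in the 12 Gy libraries, against 22.5 and 56.8 CPM in the sham libraries. As in fibroblasts, sham replicate 1 of 7 days had the lowest summed level of its preparation, 145 CPM beside 195 to 376 CPM in the other 11 endothelial libraries. Without sham replicate 2 of that time 4 genes were called (Msln, Upk3b, Upk1b and Krt8). Wt1 stood at 45.6 and 51.7 CPM in the 12 Gy libraries, against 50.8 and 47.4 CPM in the sham libraries, with a log2 fold change of -0.02 ± 0.10 (SE; adjusted p = 0.98 by edgeR). At 28 days all 8 genes lay between -0.02 and 0.18 on the log2 scale, with adjusted p-values of 0.38 or more. Neither the change after 12 Gy nor the sham level differed between times for any of the 8 genes in edgeR's tests (6.26% and 27.4% of all genes), with 0 genes at an unadjusted p under 0.05 and none called by DESeq2, although without sham replicate 2 of 7 days 3 and 6 genes were called, and without the low-count filter 5 and 6.

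In myocyte libraries the 8 genes had 1 to 221 reads per gene and library, and none was called by edgeR at 6 hours, 7 days or 28 days, beside 0.326%, 0.085% and 0.0354% of the 14115 genes tested. At an unadjusted p under 0.05 there were 0, 3 and 0 genes at these times, and DESeq2 called none. Those at 7 days, Msln, Upk1b and Krt19, each had an adjusted p of 0.35 by edgeR. At 7 days all 8 log2 fold changes were positive, from 0.08 (Lrrn4) to 1.34 ± 0.80 (Krt8, SE). Msln stood at 11.9 and 7.96 CPM in the 12 Gy libraries of 7 days, against 6.44 and 3.62 CPM in the sham libraries, with a log2 fold change of 1.15 ± 0.40 (SE; adjusted p = 0.35 by edgeR). With 1 library left out its log2 fold change ran from 0.68 to 1.56. Without the low-count filter Msln was called, where 600 of all genes were, against 12 reported. The sham level and the change after 12 Gy differed between times for 0 of the 8 genes by edgeR, as for 0% of all genes. At an unadjusted p under 0.05 there were 4 genes for the sham level and 0 for the change, and DESeq2 called Wt1 for the sham level, as did edgeR without either 12 Gy library of 7 days, while without the low-count filter edgeR called Wt1 and Upk3b.

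**Figure D4:**
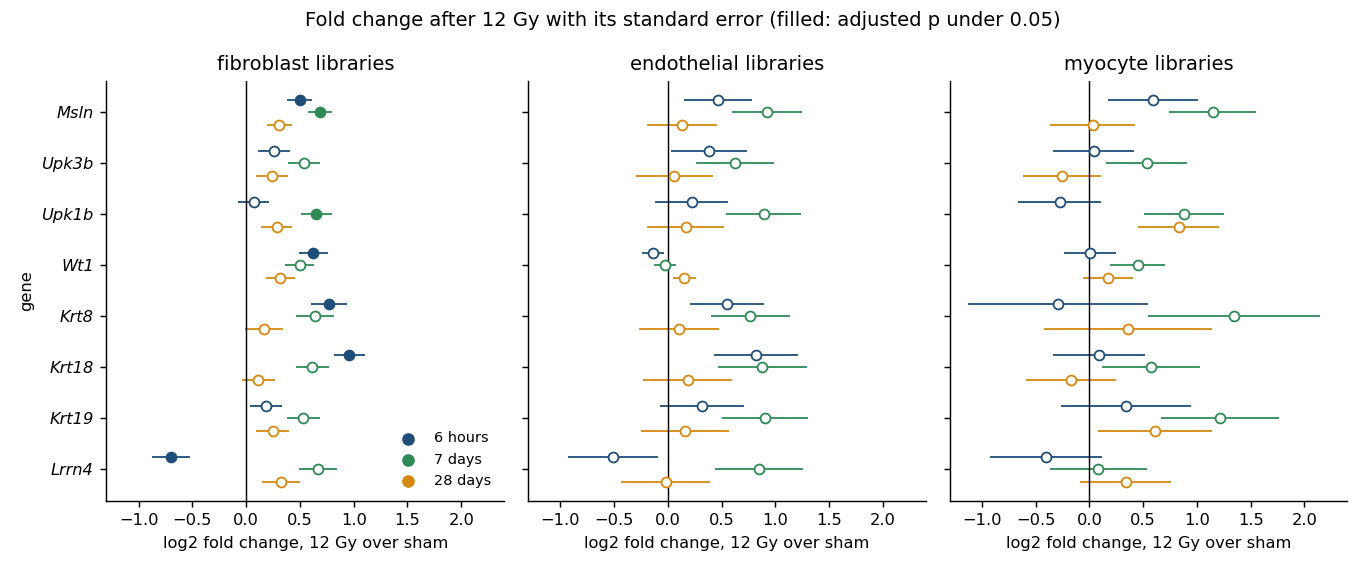
Log2 fold change of 12 Gy over sham for each gene at 6 hours (blue), 7 days (green) and 28 days (orange), with its standard error, in 1 panel per preparation. Filled points, with an adjusted p under 0.05, occur in the fibroblast panel alone.

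Whether the change after 12 Gy differed between the 3 preparations was tested in a fit of all 36 libraries. This fit takes libraries of different preparations as independent, which was not tested. None of the 8 genes was called at 6 hours, 7 days or 28 days, with 1, 0 and 0 at an unadjusted p under 0.05, beside 2.11%, 0.363% and 0.37% of 16234 genes, so a call in fibroblasts and not elsewhere is not shown to be a difference between preparations. The smallest adjusted p was that of Wt1 at 6 hours (0.094 by edgeR), which gave 0.63 in fibroblast, -0.14 in endothelial and 0.01 in myocyte libraries on the log2 scale. DESeq2 called Wt1 there and no gene at the later times. Leaving out either myocyte library of 12 Gy at 7 days, or either fibroblast sham library of 7 days, also brought Wt1 past the threshold, as did testing without the low-count filter. Spread between replicates, as edgeR's common biological coefficient of variation, came to 0.068 in fibroblast, 0.096 in endothelial and 0.172 in myocyte libraries.

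A wider list of 25 mesothelial and epicardial genes was read alongside, of which 24 were in the files and 22 were tested in fibroblast libraries. All of these 22 but Sbspon, which was highest in endothelial libraries, had their highest mean in fibroblast libraries. At 6 hours 7 genes of this list rose and 3 fell in fibroblast libraries, and the median log2 fold change of the list was 0.13. The share called over all genes was 12.3% higher and 12.3% lower in this comparison. The genes Dmkn (1.75), Cdh1 (1.53), Slpi (0.82), Ezr (0.79), Pdpn (0.72), C3 (0.69) and Igfbp6 (0.28) rose on the log2 scale. Slpi and Igfbp6 lay close to the threshold (adjusted p = 0.046 for each by edgeR). Dmkn, which encodes the secreted protein dermokine, stood at 38.8 and 45.0 CPM in the 12 Gy libraries, against 9.34 and 15.4 CPM in the sham libraries (adjusted p = 2.1e-05 by edgeR). Ezr, which encodes the membrane linker ezrin found in microvilli, stood at 591 and 661 CPM in the 12 Gy libraries, against 338 and 386 CPM in the sham libraries (adjusted p = 0.00022 by edgeR). Pdpn, the surface glycoprotein podoplanin of mesothelium and lymphatic vessels, stood at 208 and 239 CPM in the 12 Gy libraries, against 133 and 138 CPM in the sham libraries (adjusted p = 8.9e-06 by edgeR). In each of these 3 genes the groups were apart. Cdh1, the epithelial cadherin, was low at 3.88 and 5.72 CPM in the 12 Gy libraries, against 1.66 and 1.63 CPM in the sham libraries.

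The 3 genes that fell at 6 hours include Tbx18 and Bnc1, both transcription factors of the epicardium. Tbx18, a T-box factor of the epicardium, stood at 39.0 and 39.6 CPM in the 12 Gy libraries, against 57.2 and 67.1 CPM in the sham libraries (log2 fold change -0.67 ± 0.10, SE; adjusted p = 0.00019 by edgeR). Bnc1, the zinc finger protein basonuclin, stood at 30.9 and 28.4 CPM in the 12 Gy libraries, against 38.0 and 45.6 CPM in the sham libraries (log2 fold change -0.50 ± 0.15, SE; adjusted p = 0.029 by edgeR). Gas1, a growth arrest gene that fibroblasts also express, stood at 461 and 428 CPM in the 12 Gy libraries, against 920 and 832 CPM in the sham libraries (log2 fold change -0.98 ± 0.09, SE; adjusted p = 1.6e-06 by edgeR). Wt1 rose in the same libraries, so these epicardial transcription factors did not move in the same direction. Of the 10 calls at 6 hours, those of Igfbp6, Slpi, Bnc1 and Cdh1 were lost without at least 1 of the fibroblast libraries of that time, with adjusted p-values up to 0.494 by edgeR (Slpi, without 12 Gy replicate 1).

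At 7 days 6 genes of the list rose and none fell in fibroblast libraries, with a list median of 0.33 on the log2 scale, beside 1.51% of all genes called higher. They were Dmkn (1.12), Nkain4 (0.64), Rspo1 (0.62), Cldn15 (0.59), C3 (0.53) and Efemp1 (0.45). Rspo1 (adjusted p = 0.042 by edgeR) and Efemp1 (adjusted p = 0.046) lay close to the threshold. Rspo1, a secreted activator of Wnt signalling, stood at 73.6 and 67.5 CPM in the 12 Gy libraries, against 35.4 and 56.8 CPM in the sham libraries. Cldn15, a tight junction protein, stood at 165 and 149 CPM in the 12 Gy libraries, against 84.7 and 124 CPM in the sham libraries. As for the 8 genes, sham replicate 1 was the lower of the pair in both. No gene of the list was called at 7 days without sham replicate 1 or without 12 Gy replicate 2, 2 were without 12 Gy replicate 1, 3 without either sham library of 28 days, 14 without sham replicate 2 and 12 without the low-count filter. Without that filter edgeR called 843 of all genes at 7 days, against 276 reported. At 28 days none of the 22 was called by edgeR, 3 had an unadjusted p under 0.05, and DESeq2 called 1. There edgeR without the low-count filter called 7, and 929 of all genes against 494 reported. In endothelial libraries Dmkn (1.80), C3 (1.38), Tcf21 (0.67), Pkhd1l1 (0.57), Pdpn (0.56) and Ezr (0.53) rose and Gas1 (-0.66) and Prg4 (-0.44) fell at 6 hours, beside 6.1% of all genes called higher and 5.23% called lower. Prg4, the lubricating proteoglycan of joint and serosal surfaces, also fell there at 7 days (-0.60) and 28 days (-1.35), where Gas1 fell too (-0.65), beside 0.891% of all genes called lower at 7 days and 4.25% at 28 days. At 6 hours 2 of these 8 calls were left without endothelial sham replicate 1 or without 12 Gy replicate 2 of that time, and 5 without 12 Gy replicate 1. The call of Prg4 at 7 days was lost without sham replicate 1 or either 12 Gy library of that time, and that of Gas1 at 28 days without any of 9 single libraries. Tcf21 is also 1 of the 12 fibroblast markers. These summed, in endothelial libraries of 6 hours, to 3255 and 2970 CPM after 12 Gy, against 2345 and 2826 CPM in sham. At 7 days the sums were 4027 and 3733 CPM after 12 Gy, against 5281 and 5037 CPM in sham. At 28 days they were 3963 and 3725 CPM, against 4087 and 5915 CPM. The part of these markers in the endothelial results was not tested. In myocyte libraries edgeR called no gene of the list, with 2, 5 and 1 genes at an unadjusted p under 0.05 at 6 hours, 7 days and 28 days. At 7 days DESeq2 called 1 there, and edgeR called 4 without the low-count filter, where it called 600 of all genes against 12 reported.

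**Figure D5:**
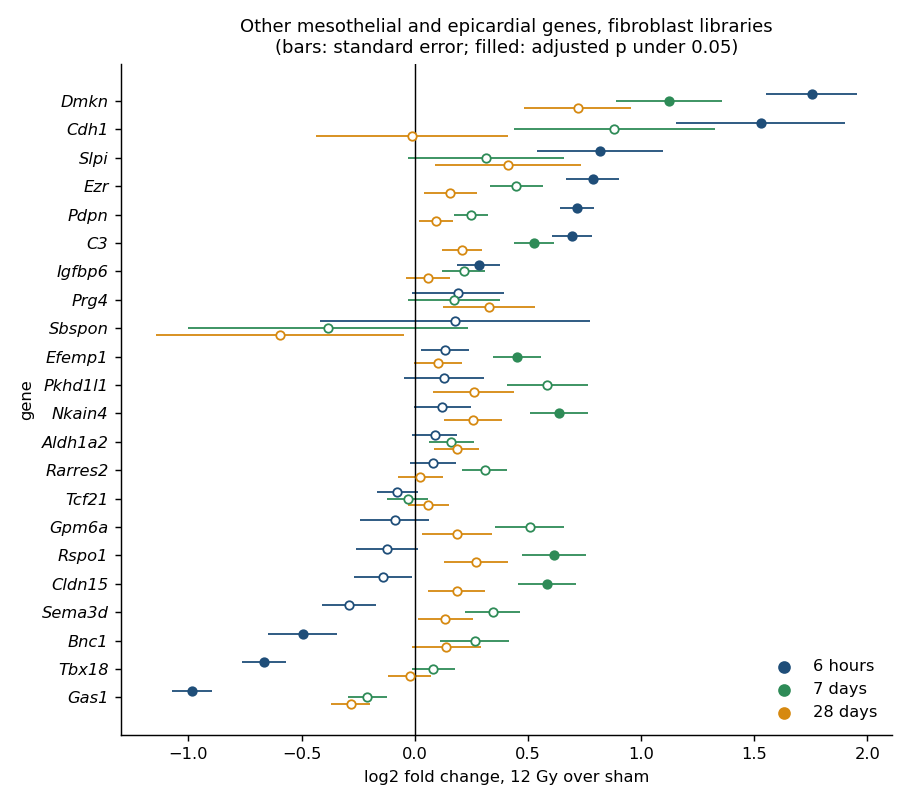
Log2 fold change of 12 Gy over sham in fibroblast libraries for the 22 other mesothelial and epicardial genes that were tested, with standard errors, at 6 hours (blue), 7 days (green) and 28 days (orange), ordered by the 6-hour value. Filled points have an adjusted p under 0.05, and run from Dmkn (1.75) to Gas1 (-0.98) at 6 hours.

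Of 8 other uroplakins and keratins of simple epithelia, Krt7 had the most reads, at 73.3 CPM in fibroblast, 9.92 CPM in endothelial and 0.84 CPM in myocyte libraries, close to the levels of Krt8. Krt80, next in reads, had another order, at 4.70 CPM in fibroblast, 10.1 CPM in endothelial and 2.21 CPM in myocyte libraries. The bladder uroplakins Upk1a, Upk2 and Upk3a had means of at most 0.46 CPM in any preparation. In fibroblast libraries Krt23 was higher (1.83 on the log2 scale) and Krt20 lower (-1.29) at 6 hours, both under 3 CPM, and Krt20 was named after its value was seen. Of 9 keratins of stratified epithelia Krt14 led with a mean of 9.13 CPM in fibroblast libraries, where it was higher at 6 hours (0.59 on the log2 scale), while Krt5 had 10 reads over all libraries and Krt6a had 0. Krt10, next to Krt14 in reads, averaged 5.68 CPM in fibroblast, 1.79 CPM in endothelial and 3.16 CPM in myocyte libraries. Of 10 genes tied to the passage of epicardial cells into mesenchyme, none rose and Acta2 (-0.84), Snai2 (-0.54), Zeb2 (-0.37) and Zeb1 (-0.27) fell at 6 hours in fibroblast libraries, where 12.3% of all genes were called lower. Snai2, Zeb1 and Zeb2 were named after their values were seen. Fn1, which encodes the matrix protein fibronectin, was higher there at 7 days (0.55) and 28 days (0.46). Vim, with the most reads of these 10 genes, averaged 2885 CPM in fibroblast, 2900 CPM in endothelial and 629 CPM in myocyte libraries. The calls of Krt23, Krt20, Krt14 and Zeb1 at 6 hours and of Fn1 at both times were each lost without at least 1 library of the same time.

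The genes whose pattern over the libraries was nearest to the mean of the 8 were sought by the root mean square difference of centred log2(CPM + 1) values, among 10897 genes with a mean of at least 5 CPM in fibroblast libraries. Over all 36 libraries the nearest were Nkain4 (0.20), Krt7 (0.22), C2 (0.24), Chst4 (0.26), Cyp2s1 (0.27), Cdh3 (0.33), Igfbp6 (0.39), Gpc3 (0.42), Efemp1 (0.42) and Slc39a8 (0.44), where the median gene was at 2.12. Of the 8 genes themselves, 7 lay between 0.22 (Upk1b) and 0.57 (Lrrn4), and Wt1 lay at 1.33, farther than any of these 10, which were picked as the nearest. Each of the 8 genes is part of the mean it was set beside, here and below. Over all 36 libraries the differences in level between preparations enter the distance. Within the groups of the 12 fibroblast libraries, where only the spread between replicates counts, Dpysl5 (0.024), C2 (0.028) and Nkain4 (0.028) were nearest, ahead of Actn3, Aplp1, Itga3, Mpzl2, Mgat3, Abcb1a and Gpc3 (0.030 to 0.041), where the median gene was at 0.15. The 8 genes lay between 0.016 (Upk1b) and 0.091 (Krt8) on this measure. C2, Nkain4 and Gpc3 were in both sets of nearest genes.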

How the data were processed

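RNA was sequenced from 36 libraries, 12 each of fibroblast, endothelial and myocyte preparations. The deposited files give read counts per RefSeq transcript (33068 rows, 24061 gene names) as made by the authors. Beside them the authors deposited values headed TPM. These values by the authors match RPKM, that is counts divided by transcript length and library total, to within 1.8e-12, and are named RPKM in the text. Reads were mapped to GRCm38 (mm10), per the submitters' processing notes, the aligner and counter being not given in the sources used here. Some tables also carry read columns of other libraries, 30 in all, which were left out.

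For each of 4914 names with several transcripts the one with most reads was kept, and CPM is relative to the sum of the kept reads. The written plan had named all counted reads as the base of CPM, and the sum of kept reads was used instead. The 12 libraries of each preparation were fitted with edgeR 4.0.16 (R 4.3.3; TMM, filterByExpr with a minimum count of 10 and a minimum total of 15, glmQLFit, glmQLFTest) as a group means model. All 8 genes passed the filter in each fit. Differences between times were F-tests in that fit, and differences between preparations came from a fit of all 36 libraries. P-values were adjusted by the Benjamini-Hochberg method over all genes, with a threshold of 0.05. Standard errors are the size of the log2 fold change divided by the square root of its quasi-likelihood F. Scripts were tested on simulated data. Precision rests on 2 libraries per group, whose depths are given above.

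The genes, the lists and the tests were chosen with earlier results of these data known. All 8 genes are named in every comparison. Of the wider mesothelial list every gene called in a comparison was eligible, and of the other lists the 3 with most reads. The 10 nearest genes by pattern are named. Coordinates and promoters come from RefSeq (GRCm38.p6), whose promoter table held 4 of the 8 genes. Alternatives tried were testing without the low-count filter, RLE size factors, DESeq2 1.42.0, the replicate number as a block, counts summed over transcripts, a fit of all 36 libraries and each library left out in turn. Summaries and figures used Python 3.11.15.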

Additional observations from a re-analysis of the deposited data

Results flagged for a closer look

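The change after 12 Gy differed between times in fibroblast libraries for Lrrn4 (adjusted p = 0.00645 by edgeR's test over times), its log2 fold change being -0.70 (6 hours), 0.66 (7 days) and 0.32 (28 days). Lrrn4 was 216 and 225 CPM in the 12 Gy libraries of 6 hours, lower in 2 of 2 libraries than the 322 and 394 CPM of the sham libraries, and higher in 2 of 2 at both later times. The same test called Krt18 (adjusted p = 0.0493), its log2 fold change being 0.96 (6 hours), 0.61 (7 days) and 0.11 (28 days). Krt18 missed the threshold with DESeq2 (adjusted p = 0.11) and with RLE size factors (adjusted p = 0.051), whereas Lrrn4 passed it in every alternative run for that test (adjusted p up to 0.036).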

How the results depend on the processing

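Of 178 values under other settings, 158 stayed the same. These values mix counts over the 8 genes with ratios of their levels in fibroblast libraries to those in the other preparations. A count stayed the same if within 1.5 times the reported count, and a ratio if within the spread between libraries. The 158 therefore do not describe the counts alone. Without the low-count filter, 8 genes were called at 7 days and 5 at 28 days in fibroblast libraries, and 5 differed between times there. Over all genes that setting called 843 at 7 days (276 reported), 929 at 28 days (494 reported) and 2456 between times (1483 reported) there. The same setting called 5 genes at 6 hours and 7 at 7 days in endothelial libraries, 5 for the change between times and 6 for the sham level, and in myocyte libraries 1 at 7 days and 2 for the sham level. Over all genes it called 674 at 7 days (271 reported) and 2161 for the change between times (934 reported) in endothelial libraries. In myocyte libraries it called 193 for the sham level (0 reported). It also called 1 gene between preparations at 6 hours, as did DESeq2, which called 1 for the sham level in myocytes. RLE size factors, DESeq2 and counts summed over transcripts each left 1 gene for the change between times in fibroblasts, and the last left 1 at 7 days. DESeq2 called 2 at 7 days there, with Wt1 in place of Upk1b. For the sham level in fibroblasts DESeq2 called 5 genes, and so did counts summed over transcripts. The fit of all 36 libraries called 2 genes at 6 hours and 0 at 7 days in fibroblasts. Within a preparation and time, the deviations of same-numbered irradiated and sham replicates had correlations from -0.11 to 0.11. Same-numbered libraries of different preparations were not compared in this way, so whether they shared an origin was not tested. With the replicate block, and with a replicate block within each time (chosen after seeing the data), 8 genes were called at 7 days in fibroblasts.

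With 1 library left out, which assumes that the lone sample varies like the other groups, the fibroblast counts ran from 3 to 6 at 6 hours, 0 to 8 at 7 days, 0 to 1 at 28 days, 1 to 5 for the change between times and 1 to 8 for the sham level. The endothelial counts ran from 0 to 4 at 7 days, 0 to 3 for the change between times and 0 to 6 for the sham level. The myocyte counts ran from 0 to 3 at 7 days and 0 to 1 for the sham level, and the count between preparations at 6 hours ran from 0 to 1. Msln at 28 days in myocytes turned sign with the replicate block (-0.02) and the block within each time (-0.055), and between -0.63 and 0.48 with a library left out. With a library left out, uncalled values that turned sign were Msln at 28 days in endothelial libraries (-0.13 to 0.45), Wt1 there at 6 hours (-0.269 to 0.002) and 7 days (-0.11 to 0.06), Upk1b at 6 hours in fibroblasts (-0.054 to 0.199) and Wt1 at 6 hours in myocytes (-0.093 to 0.093). In myocytes at 7 days the counts over all genes also moved widely with a library left out, so the counts there do not single out the 8 genes. The causes of these shifts were not tested. Counts over all genes moved by over 1.5 times in 37 of 114 cases, such as 843 without the filter and 51 in the fit of all 36 libraries against 276 reported for fibroblasts at 7 days.

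Depth was low for Krt8 in myocyte libraries, with between 1 and 22 reads per library.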
